A study of Homo sapiens with 36 samples.

Results

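Genes of ribosome biogenesis and the nucleolus were followed in HK-2, an established human cell line immortalized from the proximal tubule, where the kidney reclaims much of its filtrate. The 47 listed genes were found by symbol, and a gene with several probe sets was represented by the brightest on average over the 36 arrays, if its log2 value was above 4 on at least 3 arrays. Of the 47 genes, 42 were measured, among 11092 genes tested, and all 42 passed that filter. They comprised 3 subunits of RNA polymerase I (Pol I), 3 proteins of small nucleolar ribonucleoproteins (snoRNPs) and 3 further nucleolar proteins. The rest were 6 of the UTP-A complex, 14 factors of the small ribosomal subunit and 13 of the large subunit. NOP56, DKC1 and BOP1 lay only on probe sets that name several genes and were not used, and GNL3 and DDX18 were not analysed here.

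The cells had been exposed near confluence, and the arrays fall into 12 groups of 3. A first set held cells exposed to CdCl, to Di or to vehicle alone, for 12 h or 48 h. A second set held cells given vehicle, a low dose of Kbr or a high dose of Kbr for 24 h or 48 h. The compounds are named here only as in the labels, and the amounts given are not stated in the sources used here. The labels call the replicates biological without saying how the cultures were kept apart, so p-values measure the spread between these arrays. All 12 groups come from that 1 immortalized line, and each set was compared with its own vehicle of the same duration.

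Arrays of a group correlated at 0.983 to 0.996 over all genes tested. All 5 epithelial markers (KRT8, KRT18, KRT19, EPCAM and CDH1) were above the floor of 4, whereas of 14 proximal tubule markers 4 were (SLC3A1, SLC4A4, CDH6 and PAX8), 8 lay below it, LRP2, CUBN and AQP1 among them, and 2 were not named by 1 probe set. No endothelial or leukocyte marker with a value was above the floor. Of 4 fibroblast markers 2 were above it (COL1A1 and DCN), and of 5 distal nephron markers 1 was (SLC12A1). The log2 difference between the 3′-end and 5′-end probe sets of beta-actin, a sign of RNA integrity and labelling, averaged 1.40 to 1.84 by group in the first set and 0.87 to 1.06 in the second, so levels were compared within a set only. Each array measured RNA from a whole culture, so a shift in the makeup of the culture and a change in RNA per cell cannot be told apart.

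Ribosomes are built in the nucleolus. Pol I transcribes a long precursor of ribosomal RNA, snoRNPs guide its chemical modification, and the UTP-A complex is among the first to bind the nascent transcript. Further factors then fold, cleave and package the precursor into the small and the large subunit, which are exported to the cytoplasm. Proximal tubule cells carry a heavy load of transporters and metabolic enzymes, and ribosome output sets how much protein a cell can make. Many of these genes are known targets of MYC, which binds the E-box CACGTG.

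Promoter sequences are shown for 10 of the genes on which the results turn, as they let the start sites of genes with and without that motif be compared. RefSeq windows on GRCh38.p14 of 300 bases, 250 before the transcription start and 50 after it, existed for 37 of the 42 genes, in 42 windows. NOP58, NOLC1, NOL10, RRP12 and RRP1B had no entry. Each line gives the 100 bases from 70 before the start through 30 from it, 5′ to 3′ on the gene's strand, with the E-box in capitals. LYAR and DDX21 each have a second RefSeq window, at another start, without an E-box; for these the start with the E-box is shown.
PNO1, chr2:68157818-68157917, plus strand: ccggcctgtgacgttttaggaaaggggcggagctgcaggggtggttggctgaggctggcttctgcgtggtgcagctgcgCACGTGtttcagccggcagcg
WDR43, chr2:28894597-28894696, plus strand: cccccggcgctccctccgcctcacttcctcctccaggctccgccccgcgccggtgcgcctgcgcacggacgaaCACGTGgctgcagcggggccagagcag
GNL2, chr1:37595908-37596007, minus strand: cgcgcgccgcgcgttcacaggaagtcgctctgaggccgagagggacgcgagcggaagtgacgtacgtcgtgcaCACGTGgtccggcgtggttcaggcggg
RRP9, chr3:51941875-51941974, minus strand: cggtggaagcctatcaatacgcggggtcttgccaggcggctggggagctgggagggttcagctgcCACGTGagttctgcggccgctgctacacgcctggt
DDX21, chr10:68956577-68956676, plus strand: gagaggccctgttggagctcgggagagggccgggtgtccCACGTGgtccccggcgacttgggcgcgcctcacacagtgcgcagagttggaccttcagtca
LYAR, chr4:4289992-4290091, minus strand: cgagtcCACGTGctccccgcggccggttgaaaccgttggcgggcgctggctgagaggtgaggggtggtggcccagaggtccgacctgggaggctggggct
PES1, chr22:30591881-30591980, minus strand: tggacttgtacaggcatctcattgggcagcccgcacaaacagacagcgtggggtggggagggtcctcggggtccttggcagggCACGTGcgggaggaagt
FBL, chr19:39846350-39846449, minus strand: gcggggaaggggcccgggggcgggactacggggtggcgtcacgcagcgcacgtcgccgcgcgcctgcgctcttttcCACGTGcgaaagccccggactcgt
UTP15, chr5:73565673-73565772, plus strand: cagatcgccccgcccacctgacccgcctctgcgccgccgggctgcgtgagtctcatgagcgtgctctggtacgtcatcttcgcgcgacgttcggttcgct
POLR1A, chr2:86105857-86105956, minus strand: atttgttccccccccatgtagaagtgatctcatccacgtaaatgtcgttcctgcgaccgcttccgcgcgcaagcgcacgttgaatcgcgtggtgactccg
UTP15 and POLR1A had no E-box in their whole 300-base windows. CACGTG, which reads the same on both strands, stood in 17 of the 42 windows (40.5%), against 2548 of 35116 windows of all genes (7.26%) and 9.74% of 13454 windows of the genes tested. Of its 18 matches, 16 began between 50 bases before and 49 after the start. The ETS motif CCGGAAG, read on both strands, was in 15 of the 42 windows (35.7%), against 10.3% of all windows and 17.4% of those of tested genes. The YY1 motif AAGATGGCG, read on both strands, was in 2 (4.76%), against 1.75% and 3.51%. Ends of the ETS and YY1 motifs can share letters, and no motif holds another whole. The median GC content was 61.5% for the members' windows and 58.7% for all windows. A match is letters in a window and says nothing here of binding.

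Averaged over the 42 genes, the log2 level in the Kbr set was 9.21 ± 0.18 in vehicle, 9.65 ± 0.11 at the low dose and 9.83 ± 0.08 at the high dose at 24 h (SD, n = 3 each). At 48 h it was 8.99 ± 0.06 in vehicle, 9.80 ± 0.06 at the low dose and 10.01 ± 0.06 at the high dose. In the other set the CdCl, Di and vehicle means were 9.22 ± 0.05, 9.31 ± 0.03 and 9.23 ± 0.03 at 12 h, and 9.14 ± 0.04, 9.22 ± 0.03 and 9.04 ± 0.03 at 48 h. All 12 Kbr-treated arrays lay above all 6 of their vehicle arrays, whereas in the other set the CdCl arrays overlapped vehicle at 12 h and the Di arrays lay just above it. At 48 h the CdCl and Di arrays both lay above vehicle, by much less than the Kbr arrays did. Among the vehicle arrays of 24 h in the Kbr set, replicate 3 stood above replicates 1 and 2, at 9.42 against 9.10 and 9.11.

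**Figure D1:**
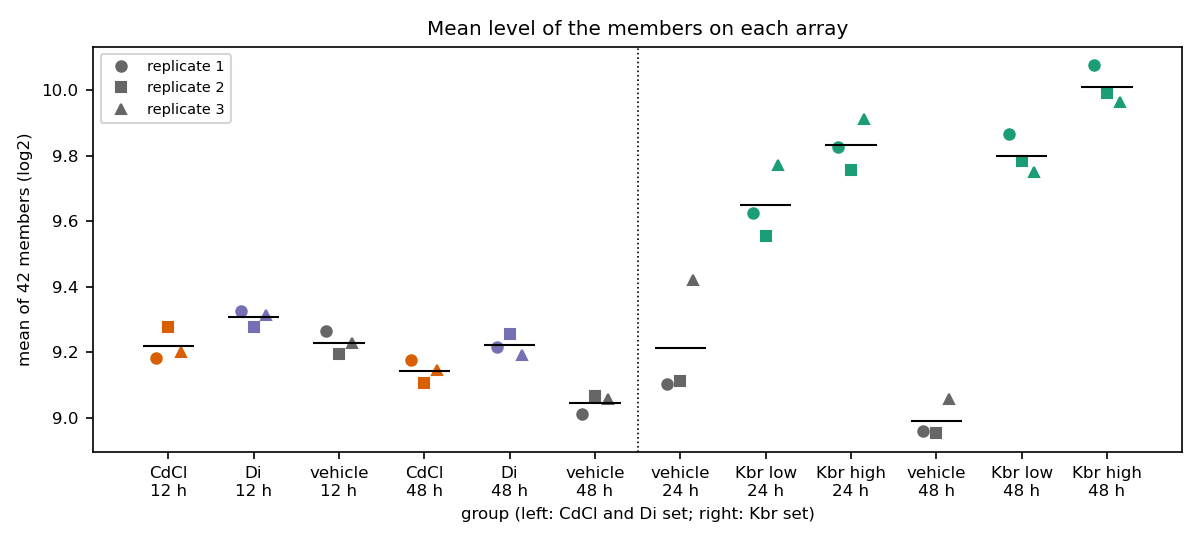
Mean log2 level of the 42 genes on each array (vertical axis) in the 12 groups (horizontal axis; the CdCl and Di set left of the dotted line, the Kbr set right of it), with the replicate number as the shape of the point and the group mean as a line. The Kbr arrays sit between 9.55 and 10.08, all above their vehicles, of which replicate 3 of 24 h is the highest at 9.42, and the groups of the other set sit close together.

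Kbr was set against vehicle to ask how these genes responded to the compound at each dose and time. At the high dose for 48 h, 41 of the 42 genes rose and none fell, with a median log2 difference of 0.99, beside -0.06 over all genes. Of all genes tested, 61.8% changed in that comparison, 27.3% higher and 34.5% lower. At the low dose for 48 h, 36 rose and none fell (median 0.80, all genes 0.00), where 47.0% of all genes changed, 23.8% higher and 23.2% lower. At 24 h, 24 rose at the low dose (median 0.45, all genes -0.01), beside 15.2% of all genes, 6.93% higher and 8.28% lower. At the high dose for 24 h 36 rose (median 0.62, all genes -0.06), beside 40.7% of all genes, 15.4% higher and 25.3% lower. No member fell in any of the 4, and at an unadjusted p under 0.05 the count of lower members was 0 as well in limma. All 42 estimated differences were above 0 in each of the 4 comparisons, in which the doses share the vehicle arrays of their time. These values are of the 1 probe set used per gene. Of 23 members with several kept probe sets, all probe sets rose at the high dose for 48 h in 18, and POLR1A, HEATR1, WDR12, RRP1 and RRP15 were the 5 in which not all did. All probe sets rose in fewer of the 23 elsewhere, 13 at the low dose for 48 h, 12 at the high dose for 24 h and 7 at the low dose for 24 h. The number was 2 under CdCl for 12 h, and 1 each under CdCl for 48 h, Di for 12 h and Di for 48 h.

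**Figure D2:**
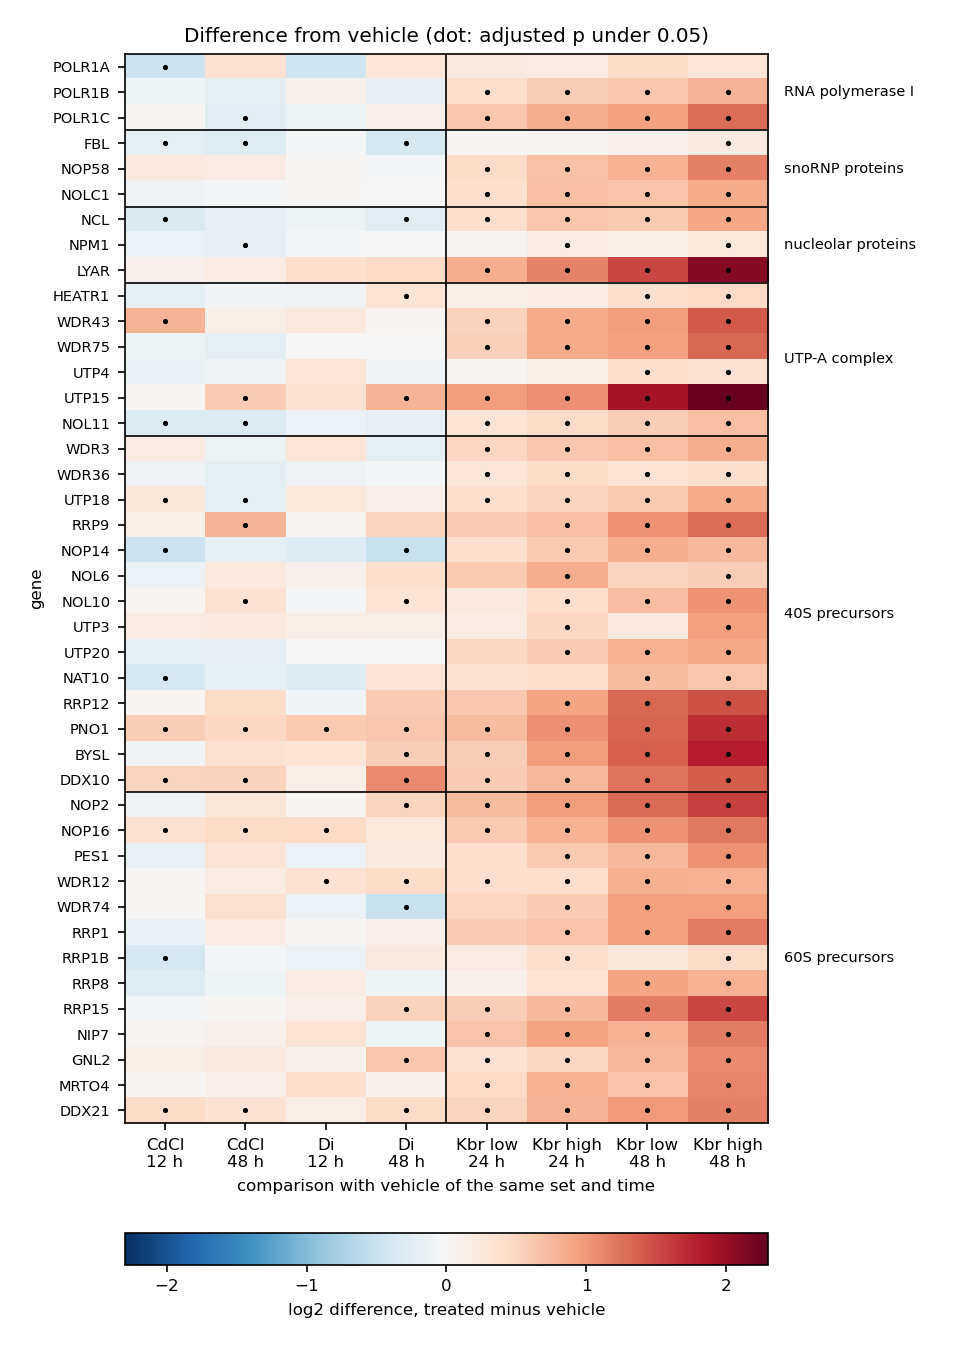
Log2 difference from vehicle of each of the 42 genes in the 8 comparisons, with genes grouped by role and cells that passed the test (adjusted p under 0.05) marked. The 4 Kbr columns are red throughout, deepest for UTP15 and LYAR at 48 h, and the CdCl and Di columns hold both colours.

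The calls rested unevenly on single arrays. At the low dose for 24 h, 14 of the 24 calls held in every run that left out 1 array, and leaving out vehicle replicate 1 brought the count to 14, LYAR, NOP58 and WDR3 among those lost. At 48 h, 34 of 36 calls at the low dose and 37 of 41 at the high dose held in every such run, as did 30 of 36 at the high dose for 24 h. In the Kbr set arrays of the same replicate number deviated together, and with the replicate number as a block 32 genes passed at the low dose for 24 h and 39 for 48 h. The genes added at 24 h were RRP9, NOP14, NOL6, UTP20, RRP12, PES1, WDR74 and RRP1, with adjusted p between 0.00688 for PES1 and 0.0461 for RRP12. Those added at 48 h were POLR1A (0.0229), NOL6 (0.0385) and RRP1B (0.0181). The share of all genes that pass with the block is not given, here or below. Calls added by the block are therefore not read as particular to the members.

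Markers of other cell types moved in the same arrays. The summed log2 level of the 4 fibroblast genes was 11.88 to 11.89 in vehicle, 9.93 to 10.46 at the low dose and 9.81 to 10.13 at the high dose of Kbr for 48 h, and COL1A1 and DCN, the 2 above the floor, stood at -2.58 and -1.94 from vehicle at the high dose. The summed level of the 12 proximal tubule markers with a value was 13.42 to 13.99 in vehicle, 12.53 to 12.85 at the low dose and 12.09 to 12.28 at the high dose, and 3 of the 4 above the floor fell at each dose. At 24 h the fibroblast sums were 11.92 to 12.42, 11.26 to 11.64 and 10.91 to 11.35 in the same order. Of the 5 epithelial markers, 4 fell and 1 rose at the high dose for 48 h. The part of these shifts in the members' differences was not tested.

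Among the 6 UTP-A genes, all 6 rose at the high dose for 48 h (median 1.01) and all 6 at the low dose for 48 h (median 0.76). At each dose for 24 h 4 rose. Of all genes 27.3% rose at the high dose and 23.8% at the low dose for 48 h, and 15.4% and 6.93% for 24 h. UTP15, a WD-repeat subunit of the complex, read 6.95, 7.35 and 7.45 in vehicle, 9.15, 9.38 and 8.95 at the low dose and 9.46, 9.86 and 9.31 at the high dose for 48 h. The treated groups lay far above vehicle and overlapped each other. The log2 difference was 1.91 ± 0.16 at the low dose (SE; 3.76-fold, adjusted p = 8.42e-10) and 2.29 ± 0.16 at the high dose (4.90-fold, 95% interval 1.95 to 2.63, adjusted p = 3.04e-12), the largest of any member. At 24 h its arrays read 7.79, 7.71 and 7.88 in vehicle, 8.68, 8.89 and 8.68 at the low dose and 8.67, 9.11 and 8.77 at the high dose, with differences of 0.96 and 1.06.

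WDR75, another WD-repeat subunit, read 10.01, 10.25 and 10.22 in vehicle, 11.02, 11.24 and 11.06 at the low dose and 11.51, 11.59 and 11.33 at the high dose for 48 h. All 3 groups were apart, and the differences from vehicle were 0.94 ± 0.10 and 1.32 ± 0.10. WDR43, whose promoter carries an E-box just after its start, read 7.83, 7.76 and 8.01 in vehicle, 8.98, 8.77 and 8.76 at the low dose and 9.60, 9.16 and 9.09 at the high dose, with differences of 0.96 ± 0.16 and 1.41 ± 0.16. NOL11, which works with UTP4 in early cleavage of the precursor, rose by 0.57 and 0.70 at 48 h. HEATR1 and UTP4 had the smallest differences of the complex, 0.37 and 0.38 at the low dose and 0.46 and 0.33 at the high dose for 48 h. Neither passed at 24 h at either dose (HEATR1 0.14 and 0.16, UTP4 0.05 and 0.13), and the UTP4 call was lost without low-dose replicate 2 of 48 h and, at the high dose, without vehicle replicate 1 of 48 h.

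Of the 14 small subunit factors, 14 rose at the high dose for 48 h (median 0.91) and 12 at the low dose, with NOL6 (0.52) and UTP3 (0.22) not past the test. At 24 h, 13 rose at the high dose and 6 at the low dose. The shares of all genes that rose were 27.3% and 23.8% at the high and low dose for 48 h, and 15.4% and 6.93% for 24 h. PNO1, a factor that binds near the cleavage site of the small subunit precursor late in maturation, read 9.32, 9.70 and 9.49 in vehicle, 10.82, 10.94 and 10.78 at the low dose and 11.11, 11.33 and 11.19 at the high dose for 48 h. The 3 groups did not overlap, and the differences were 1.34 ± 0.11 (2.53-fold, adjusted p = 2.06e-10) and 1.70 ± 0.11 (3.26-fold, 95% interval 1.49 to 1.92, adjusted p = 2.05e-13). BYSL, which acts with late small subunit precursors, read 8.23, 7.90 and 8.56 in vehicle, 9.78, 9.36 and 9.70 at the low dose and 9.98, 9.99 and 10.15 at the high dose. Its differences were 1.38 ± 0.16 and 1.81 ± 0.16, with no overlap between the 3 groups.

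RRP12, a HEAT-repeat protein of subunit export, was more scattered at 6.51, 5.94 and 6.34 in vehicle, 8.19, 7.06 and 7.50 at the low dose and 8.32, 7.62 and 7.24 at the high dose for 48 h. Replicate 1 was the highest of its group at all 3 levels of exposure, and the groups of the doses overlapped. It rose by 1.32 ± 0.25 at the low dose and 1.46 ± 0.25 at the high dose (adjusted p = 1.29e-05). DDX10, an RNA helicase, read 7.46, 7.60 and 7.70 in vehicle, 8.93, 8.91 and 8.66 at the low dose and 9.11, 8.99 and 8.80 at the high dose, and rose by 1.25 ± 0.12 and 1.38 ± 0.12. RRP9, a protein of a box C/D snoRNP needed for early cleavage, read 5.97, 5.33 and 5.97 in vehicle, 7.27, 6.40 and 6.69 at the low dose and 7.02, 6.81 and 7.27 at the high dose. Its differences were 1.03 ± 0.26 and 1.28 ± 0.26, with the treated arrays above every vehicle array.

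The other small subunit factors had smaller differences at the high dose for 48 h on the probe sets used. NOL10 rose by 1.03, UTP3 by 0.94, UTP20 by 0.87, UTP18 by 0.85, WDR3 by 0.84, NOP14 by 0.75 and NAT10, an RNA acetyltransferase, by 0.64. NOL6 rose by 0.57 ± 0.24 and WDR36 by 0.37 ± 0.09. The other probe set of WDR36 also rose, by 1.40. The NOL6 call (adjusted p = 0.0432) was lost without vehicle replicate 2 or high-dose replicate 1 or 3. NAT10 read 8.01, 7.82 and 7.94 at the high dose and 7.46, 7.31 and 7.89 in vehicle for 24 h. The groups overlapped, and NAT10 did not pass there (0.37 ± 0.16, adjusted p = 0.0627).

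All 13 large subunit factors rose at the high dose for 48 h, with a median of 1.12, beside 27.3% of all genes. At the low dose for 48 h 12 rose, beside 23.8% of all genes. For 24 h 12 rose at the high dose and 8 at the low dose, beside 15.4% and 6.93% of all genes. NOP2, a methyltransferase of the large subunit RNA, read 8.48, 8.25 and 8.27 in vehicle, 9.76, 9.64 and 9.52 at the low dose and 10.09, 9.89 and 9.72 at the high dose for 48 h. Every treated array lay above every vehicle array, and the groups of the doses overlapped. The differences were 1.31 ± 0.11 and 1.57 ± 0.11 (2.96-fold, 95% interval 1.33 to 1.80, adjusted p = 4.22e-12). RRP15 read 8.31, 8.78 and 8.64 in vehicle, 9.84, 9.73 and 9.67 at the low dose and 10.17, 10.20 and 9.96 at the high dose, with 3 separate groups and differences of 1.17 ± 0.11 and 1.53 ± 0.11. The other probe set of RRP15 gave 0.16 and -0.12 and did not pass.

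NOP16, a nucleolar protein of the large subunit pathway, rose by 1.22 at the high dose for 48 h, RRP1 by 1.18 (0.099 on its other probe set), NIP7 by 1.17, the helicase DDX21 by 1.15, MRTO4 by 1.12 and the GTPase GNL2 by 1.09. PES1, which forms a complex with BOP1 and WDR12, read 9.17, 8.96 and 9.21 in vehicle, 9.95, 9.77 and 9.87 at the low dose and 10.19, 10.02 and 10.24 at the high dose for 48 h. The 3 groups of PES1 were apart, with differences of 0.75 ± 0.14 and 1.04 ± 0.14. Its partner WDR12 rose by 0.82 and 0.79 on the probe set used, while its probe sets gave -0.35 to 0.79 at the high dose for 48 h. WDR74 rose by 0.94 and RRP8 by 0.81 at the high dose for 48 h. RRP1B had the smallest difference of the large subunit factors there, 0.44 ± 0.15, and that call was lost without vehicle replicate 2 or high-dose replicate 1 or 3.

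Of the 3 Pol I subunits 2 rose on the probe sets used at each dose for 48 h. Beside them 27.3% of all genes rose at the high dose and 23.8% at the low dose. POLR1C, a subunit shared with RNA polymerase III, read 8.01, 8.06 and 8.05 in vehicle, 8.96, 9.05 and 8.90 at the low dose and 9.40, 9.39 and 9.20 at the high dose for 48 h. The 3 groups were apart, and the differences were 0.93 ± 0.08 and 1.29 ± 0.08 (2.44-fold, adjusted p = 3.85e-13). POLR1B, the second-largest subunit, read 9.26, 9.24 and 8.95 in vehicle, 9.83, 9.87 and 9.62 at the low dose and 10.17, 9.95 and 9.68 at the high dose, and rose by 0.63 ± 0.11 and 0.78 ± 0.11. POLR1A, the largest, catalytic subunit, read 6.24, 5.96 and 6.26 in vehicle, 6.58, 6.53 and 6.66 at the low dose and 6.52, 6.29 and 6.49 at the high dose. Its arrays at the high dose lay just above those of vehicle, and on the probe set used it was the member that did not pass there, at 0.28 ± 0.19 (95% interval -0.11 to 0.67, adjusted p = 0.207). Its 3 kept probe sets disagreed, from 0.018 to 1.22 at the high dose and from 0.19 to 1.04 at the low dose for 48 h, and at each dose 1 of them rose. At the low dose for 48 h it was at 0.44 ± 0.19 (adjusted p = 0.0587), a difference that passed with the replicate block.

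Among the snoRNP proteins, NOP58, a core protein of the box C/D class, read 11.12, 11.37 and 11.15 in vehicle, 12.17, 11.96 and 11.92 at the low dose and 12.65, 12.26 and 12.23 at the high dose for 48 h, with differences of 0.80 ± 0.11 and 1.16 ± 0.11 and no overlap between the 3 groups. NOLC1, a chaperone of snoRNPs, rose by 0.65 ± 0.08 and 0.85 ± 0.08. FBL, the ribose methyltransferase of the same box C/D particles, read 12.69, 12.48 and 12.59 in vehicle, 12.69, 12.63 and 12.78 at the low dose and 12.71, 12.70 and 12.96 at the high dose. The low dose overlapped vehicle (0.12 ± 0.09, adjusted p = 0.28). At the high dose FBL rose by 0.20 ± 0.09 (1.15-fold, adjusted p = 0.0402), a call lost without vehicle replicate 2 or 3 or high-dose replicate 3. At 24 h FBL differed from vehicle by 0.03 at the low dose and 0.06 at the high dose, and did not pass.

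The further nucleolar proteins, LYAR, NCL and NPM1, ranged widely in their differences. LYAR, a nucleolar zinc finger protein, read 8.14, 8.55 and 8.69 in vehicle, 9.75, 10.10 and 10.13 at the low dose and 10.27, 10.57 and 10.83 at the high dose for 48 h. The 3 groups did not overlap, and LYAR rose by 1.53 ± 0.20 (2.89-fold) and 2.10 ± 0.20 (4.28-fold, 95% interval 1.69 to 2.50, adjusted p = 4.84e-10). NCL, nucleolin, read 12.63, 12.54 and 12.66 in vehicle, 13.27, 13.18 and 13.19 at the low dose and 13.49, 13.50 and 13.50 at the high dose, again with 3 separate groups, and rose by 0.60 ± 0.08 and 0.88 ± 0.08. NPM1, nucleophosmin, which shuttles ribosomal particles, read 14.84, 14.83 and 14.72 in vehicle, 14.94, 14.96 and 14.88 at the low dose and 15.04, 15.09 and 14.99 at the high dose. Its differences were 0.13 ± 0.06 (adjusted p = 0.0971; 0.13 to 0.45 over its 3 probe sets, 2 of which rose) and 0.24 ± 0.06 (adjusted p = 0.00151), among the smallest, on values near the top of the array's range.

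**Figure D3:**
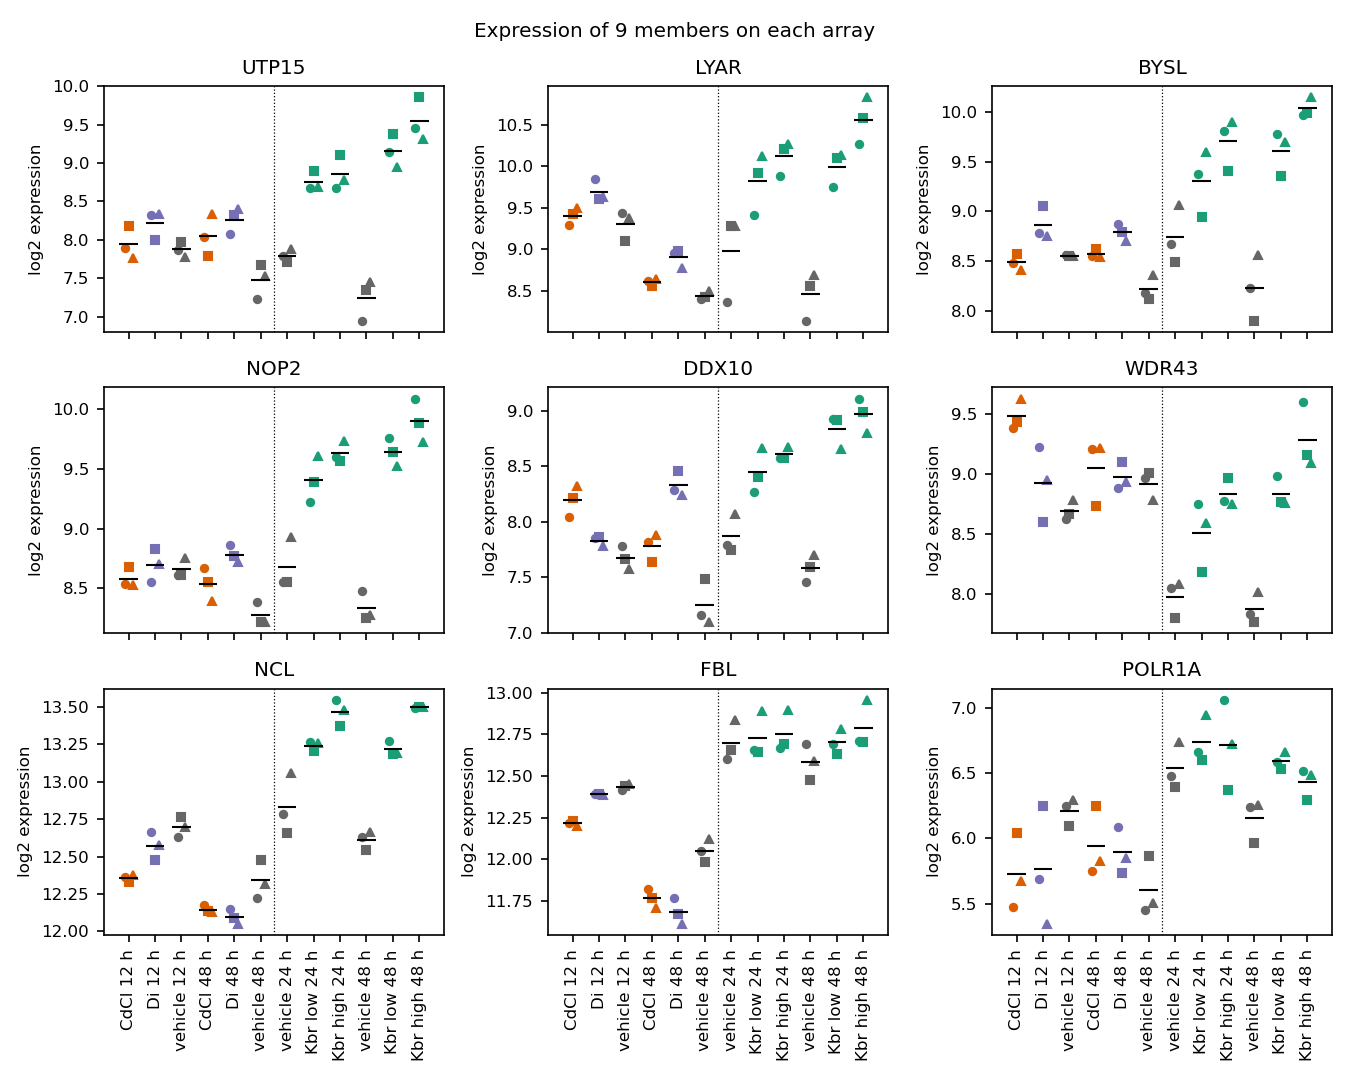
Log2 level on every array (points, shaped by replicate number) and group means (lines) of UTP15, LYAR, BYSL, NOP2, DDX10, WDR43, NCL, FBL and POLR1A in the 12 groups, each gene on its own axis. In the Kbr set the treated arrays of UTP15, BYSL at 48 h and NOP2 stand clear above vehicle while those of FBL and POLR1A lie beside it at 24 h, and in the other set DDX10 under Di for 48 h and WDR43 under CdCl for 12 h stand above vehicle.

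The doses were compared directly. At 24 h 1 member was higher at the high than at the low dose, NOLC1 (0.30 ± 0.08, adjusted p = 0.0247), beside 4.39% of all genes, 0.685% higher and 3.71% lower. Its arrays read 12.99, 12.89 and 12.90 at the high dose and 12.56, 12.59 and 12.73 at the low dose, and the call was lost in 4 of the runs that left out 1 array. With the replicate block 5 members passed, NOLC1, MRTO4 (adjusted p = 0.00756), BYSL (0.0100), PNO1 (0.0131) and WDR75 (0.0152). With the Kbr set fitted alone 0 passed. At 48 h 13 were higher and 0 lower, beside 23.8% of all genes, 6.46% higher and 17.3% lower, and at an unadjusted p under 0.05 limma had 18 higher and 0 lower. The median over the members was 0.20 there and over all genes -0.06, and since centring each array on its median moved the latter to 0.04, differences are also given relative to the median of all genes.

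UTP3, a small subunit factor also known as SAS10, read 9.99, 9.92 and 9.99 at the high dose and 9.18, 9.19 and 9.35 at the low dose for 48 h, 2 tight groups that did not overlap. The difference was 0.73 ± 0.11 (adjusted p = 1.16e-05), or 0.79 relative to the median of all genes. LYAR differed by 0.57 (0.63 relative to the median), MRTO4 by 0.47 (0.54), WDR43 by 0.45 (0.51) and NCL by 0.28 (0.34). WDR75, PNO1, POLR1C, NOP58, RRP15, GNL2, NOL10 and UTP18 passed with 0.25 to 0.37. UTP15 (0.38, adjusted p = 0.0927) and BYSL (0.43, adjusted p = 0.0563) did not. With the replicate block BYSL (adjusted p = 0.00169), NIP7 (0.0222), NOLC1 (0.0337) and PES1 (0.0410) passed too, 17 members in all. With the Kbr set fitted alone and no block, 4 members passed. The 13 calls became 6 without low-dose replicate 2 and 8 without high-dose replicate 1, and 4 of them, POLR1C, NCL, WDR75 and UTP3, held in every run.

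CdCl was set against vehicle at 12 h and 48 h, and members moved both ways, as all genes did. At 12 h 6 rose and 7 fell, with a median of -0.06 beside -0.16 over all genes. Of all genes 43.9% changed, 13.4% higher and 30.5% lower. At 48 h 7 rose and 5 fell (median 0.13, all genes -0.01), beside 42.7% of all genes, 20.7% higher and 22.0% lower. The members called were 31% at 12 h and 28.6% at 48 h, each a smaller share than of all genes. With each array centred on its median the split was 8 higher and 2 lower at 12 h, and 7 higher and 2 lower at 48 h. Of the 13 calls at 12 h 6 held in every run that left out 1 array, and of the 12 at 48 h 5 did. The count at 12 h fell to 8 without vehicle replicate 1 or 2 or CdCl replicate 1. These counts are of the 1 probe set used per gene. NOLC1 was not called at 12 h, though 1 of its 3 probe sets rose (-0.08 to 0.73 over the 3). The summed proximal tubule markers were 13.32 to 13.54 in CdCl and 13.70 to 13.77 in vehicle at 12 h, and 11.42 to 11.46 in CdCl and 13.47 to 13.62 in vehicle at 48 h. Their part in the members' differences was not tested.

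WDR43 had the largest rise at 12 h. Its arrays read 9.38, 9.43 and 9.63 in CdCl and 8.62, 8.67 and 8.78 in vehicle, groups far apart, a difference of 0.79 ± 0.16 (1.73-fold, adjusted p = 0.00019). At 48 h they read 9.20, 8.73 and 9.21 in CdCl and 8.96, 9.01 and 8.78 in vehicle, which overlapped (0.13). PNO1 rose at both times, with 10.07, 10.02 and 10.05 in CdCl and 9.60, 9.45 and 9.36 in vehicle at 12 h, a difference of 0.57 ± 0.11 (adjusted p = 8.14e-05), and 0.48 ± 0.11 at 48 h. DDX10 read 8.04, 8.21 and 8.33 in CdCl and 7.78, 7.66 and 7.58 in vehicle at 12 h (0.52 ± 0.12), and 7.82, 7.64 and 7.88 in CdCl and 7.16, 7.49 and 7.10 in vehicle at 48 h (0.53 ± 0.12). The CdCl arrays of DDX10 were above vehicle at each time.

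DDX21 rose by 0.44 at 12 h and 0.33 at 48 h, and NOP16 by 0.35 and 0.43. UTP18 rose by 0.26 at 12 h and fell by 0.23 at 48 h. The DDX21 call at 48 h was lost in 5 of the runs that left out 1 array, that of NOP16 in 4 at 12 h and without vehicle replicate 1 at 48 h, and that of UTP18 without vehicle replicate 2 at 12 h. RRP9 read 6.57, 5.99 and 6.21 in CdCl and 5.44, 5.56 and 5.44 in vehicle at 48 h, groups apart, and rose by 0.78 ± 0.26 (1.71-fold, adjusted p = 0.0164). UTP15 read 8.04, 7.79 and 8.33 in CdCl and 7.23, 7.67 and 7.53 in vehicle at 48 h and rose by 0.58 ± 0.16 (adjusted p = 0.0057). The RRP9 call was lost without CdCl replicate 1 and that of UTP15 without CdCl replicate 3. NOL10 rose by 0.33 ± 0.10 at 48 h and held in every run.

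The falls under CdCl were modest. NCL read 12.37, 12.33 and 12.38 in CdCl and 12.63, 12.76 and 12.70 in vehicle at 12 h, separate groups, and fell by 0.34 on the log2 scale (adjusted p = 0.00136). NOL11 fell by 0.31 at 12 h and by 0.32 at 48 h, and held in every run at each time. FBL read 11.82, 11.77 and 11.71 in CdCl and 12.05, 11.98 and 12.12 in vehicle at 48 h, also separate, and fell by 0.28 (adjusted p = 0.00861). At 12 h FBL fell by 0.22, a call lost whichever array was left out. NPM1 fell by 0.19 at 48 h, lost without vehicle replicate 1 or CdCl replicate 2. POLR1C (fell by 0.24) and UTP18 passed at 48 h, with calls lost in 3 and 2 runs.

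NOP14 and POLR1A each fell by 0.48 at 12 h, RRP1B and NAT10 each by 0.39. POLR1A read 5.48, 6.04 and 5.67 in CdCl and 6.25, 6.10 and 6.29 in vehicle. The groups of POLR1A were apart by a narrow margin, and its call (adjusted p = 0.0397) was lost without vehicle replicate 1 or 3 or CdCl replicate 1 or 3. That of RRP1B was lost whichever array was left out, and that of NAT10 in 5 runs. That of NOP14 was lost without replicate 1 of either group. Probe sets of RRP1B disagreed here, from -0.39 to 0.70, and those of HEATR1 from -0.34 to 0.87, each with opposite calls.

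Di was set against the same vehicle arrays as CdCl. At 12 h 3 members rose and 0 fell (median 0.05, all genes -0.07), beside 6.27% of all genes, 1.67% higher and 4.60% lower. At an unadjusted p under 0.05 limma had 9 higher and 1 lower. At 48 h 11 rose and 4 fell (median 0.13, all genes -0.01), beside 43.0% of all genes, 19.1% higher and 23.9% lower, and 13 of these 15 calls held in every run that left out 1 array. At 12 h the beta-actin difference averaged 1.40 ± 0.16 in Di and 1.84 ± 0.14 in vehicle (SD, n = 3 each), and its part in the 12 h values was not tested. At 48 h 3 of the 4 proximal tubule markers above the floor fell, with summed levels of 11.08 to 11.25 in Di and 13.47 to 13.62 in vehicle, and 3 of 5 epithelial markers fell. The summed fibroblast markers were 10.24 to 10.28 in Di and 11.08 to 11.26 in vehicle at 48 h, and DCN had a difference of -0.98. The part of these markers was not tested.

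The 3 rises at 12 h were PNO1, NOP16 and WDR12. PNO1 read 10.08, 10.09 and 10.03 in Di and 9.60, 9.45 and 9.36 in vehicle, a difference of 0.60 ± 0.11 (1.51-fold, adjusted p = 0.00108). Its groups lay apart, and this call held in every run. NOP16 (0.46, adjusted p = 0.0381) was lost whichever array was left out and WDR12 (0.33, adjusted p = 0.0295) in 4 runs, and the count was 1 without vehicle replicate 2 or 3 or Di replicate 3.

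DDX10 led at 48 h. Its arrays read 8.28, 8.46 and 8.24 in Di and 7.16, 7.49 and 7.10 in vehicle, groups far apart, and it rose by 1.08 ± 0.12 (2.11-fold, 95% interval 0.83 to 1.32, adjusted p = 1.98e-08). UTP15 read 8.08, 8.32 and 8.40 in Di and 7.23, 7.67 and 7.53 in vehicle and rose by 0.79 ± 0.16 (1.73-fold, adjusted p = 0.000285). GNL2 read 10.40, 10.53 and 10.36 in Di and 9.79, 9.84 and 9.75 in vehicle and rose by 0.64 ± 0.11 (adjusted p = 1.7e-05). In each of the 3 genes every Di array was above every vehicle array. PNO1 rose by 0.61, BYSL by 0.57, RRP15 by 0.53, NOP2 by 0.51, DDX21 by 0.44, WDR12 by 0.42, NOL10 by 0.32 and HEATR1 by 0.31. Probe sets of WDR12 gave opposite calls here, from -0.53 to 0.42, and the other probe set of RRP15 gave -0.49 and did not pass.

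The 4 falls under Di at 48 h were NOP14 and WDR74, each by 0.50, FBL by 0.37 and NCL by 0.24. FBL read 11.77, 11.68 and 11.62 in Di and 12.05, 11.98 and 12.12 in vehicle, and the groups did not overlap (adjusted p = 0.000955). NCL read 12.15, 12.09 and 12.05 in Di and 12.22, 12.48 and 12.32 in vehicle, just apart. The NCL call was lost without vehicle replicate 2 or Di replicate 3, and that of WDR74 in 4 of the runs that left out 1 array. NPM1 did not pass, at -0.02 ± 0.06 (95% interval -0.15 to 0.11). POLR1B did not pass on the probe set used, though 1 of its 4 fell (-0.87 to -0.19 over the 4). PNO1 was the only one of the 42 that passed in all 8 comparisons with vehicle, each time as a rise on the probe set used. Of its 3 probe sets 1 rose under CdCl for 48 h and 1 under Di for 12 h, where the lowest gave -0.13.

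CdCl and Di were compared with each other at each time. At 12 h 2 members were higher and 4 lower in CdCl than in Di, beside 35.6% of all genes, 13.6% higher and 22.1% lower. WDR43 read 9.38, 9.43 and 9.63 in CdCl and 9.22, 8.60 and 8.95 in Di, without overlap, a difference of 0.55 ± 0.16 (adjusted p = 0.00665), and DDX10 differed by 0.36. UTP4 (-0.43), MRTO4 (-0.36), WDR12 (-0.30) and NCL (-0.22) were lower in CdCl. The count was 2 without CdCl replicate 3 and 3 without Di replicate 3, the UTP4 call held in every run, and with arrays centred on their medians 3 were higher and 2 lower.

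At 48 h 1 member was higher and 9 lower in CdCl than in Di, beside 37.6% of all genes, 20.5% higher and 17.1% lower. The 1 was WDR74, a factor of the large subunit, which read 8.42, 8.30 and 7.85 in CdCl and 7.21, 7.50 and 7.29 in Di, groups apart by 0.85 ± 0.17 (1.81-fold, adjusted p = 0.000256). DDX10 read 7.82, 7.64 and 7.88 in CdCl and 8.28, 8.46 and 8.24 in Di, again apart (-0.55 ± 0.12, adjusted p = 0.000585). RRP15 (-0.52), NAT10 (-0.51), GNL2 (-0.43), HEATR1 (-0.37), POLR1C (-0.36), UTP18 (-0.35), WDR12 (-0.26) and NPM1 (-0.18) were the others. Of the 10 calls 7 held in every run that left out 1 array.

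The change of each effect over time was tested as an interaction. The high Kbr effect was larger at 48 h than at 24 h for 15 members and smaller for 0, beside 15.0% of all genes, 6.89% higher and 8.10% lower, and at an unadjusted p under 0.05 limma had 22 and 0. The low Kbr effect was larger for 8 and smaller for 0, beside 4.35% of all genes, 2.54% higher and 1.80% lower, with 19 and 0 at an unadjusted p under 0.05. Among the members that passed, UTP15 had the largest change at each dose, 1.24 ± 0.23 at the high dose (adjusted p = 0.000737) and 0.95 ± 0.23 at the low dose (adjusted p = 0.0217). LYAR (0.95), BYSL (0.84), RRP15 (0.79), PNO1 (0.66) and DDX10 (0.64) followed at the high dose, and BYSL (0.82), DDX10 (0.67), RRP15 and PNO1 (0.61 each) at the low dose. The remaining calls were NOL10 and GNL2 (0.62 each), NOP2 (0.61), NOP58 (0.50), UTP3 (0.47), WDR75 and POLR1C (0.46 each), WDR12 (0.39) and UTP18 (0.34) at the high dose, and NOP2 (0.58), NOL10 (0.49) and WDR12 (0.44) at the low dose. RRP8 (0.82, adjusted p = 0.0643) and LYAR (0.69, adjusted p = 0.157) did not pass at the low dose.

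These counts leaned on vehicle arrays. Without vehicle replicate 3 of 24 h, the array in which the members stood high, the counts were 8 at the high dose and 0 at the low dose. The low-dose count was also 0 without low-dose replicate 1 of 24 h, 1 without vehicle replicate 1 or low-dose replicate 2 of 48 h, and 2 to 5 without low-dose replicate 1 of 48 h, low-dose replicate 2 of 24 h or vehicle replicate 2 of 48 h. With the replicate block 12 passed at the low dose, RRP8 (adjusted p = 0.0491) and LYAR (0.00550) among them. With the Kbr set fitted alone 0 passed at the low dose and 7 at the high dose. The 7 high-dose calls that held in every run were POLR1C, UTP15, NOL10, PNO1, DDX10, RRP15 and GNL2.

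The vehicle arrays themselves differed with time. In the Kbr set 0 members were higher and 8 lower at 48 h than at 24 h, beside 12.2% of all genes, 5.08% higher and 7.16% lower, led by UTP15 (-0.54), BYSL (-0.51), NOP16 (-0.43), MRTO4 (-0.40) and RRP15 (-0.38), with UTP3 and NOP2 (-0.35 each) and GNL2 (-0.33). At an unadjusted p under 0.05 limma had 0 higher and 17 lower. The count was 0 without vehicle replicate 3 of 24 h or replicate 1 of 48 h, and 5 without replicate 2 of 48 h. It was 13 with the replicate block and 0 with the Kbr set fitted alone. In the CdCl and Di set 1 member was higher and 15 lower at 48 h than at 12 h, beside 45.7% of all genes, 18.3% higher and 27.3% lower, and 3 higher and 11 lower with arrays centred. RRP1B read 9.94, 9.98 and 9.65 at 48 h and 10.85, 10.79 and 10.95 at 12 h (-1.0 ± 0.15, adjusted p = 4.13e-06), and LYAR read 8.40, 8.43 and 8.49 at 48 h and 9.44, 9.10 and 9.37 at 12 h (-0.86 ± 0.20). In both genes the 48 h arrays lay below all those of 12 h. UTP20 (-0.70), POLR1A (-0.60) and UTP15 (-0.40) were also lower, and WDR74 (0.45) was higher.

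The CdCl effect changed between 12 h and 48 h for 3 members, beside 24.2% of all genes, 16.4% higher and 7.78% lower. POLR1A was higher at 48 h by 0.82 ± 0.27 (adjusted p = 0.0264), and WDR43 (-0.66) and UTP18 (-0.49) were lower, and with arrays centred 0 were higher and 3 lower. The count was 1 without vehicle replicate 1 of 48 h, CdCl replicate 3 of 12 h or CdCl replicate 2 of 48 h, the call that held in every run being UTP18. Taken with its sign, the Di effect was higher at 48 h for 7 members and lower for 2. Of all genes 29.0% changed in that comparison, 15.1% higher and 13.9% lower. A higher effect was not always larger in size, as POLR1A went from -0.45 at 12 h to 0.28 at 48 h. DDX10 changed by 0.92 ± 0.17 (adjusted p = 0.00012), POLR1A by 0.73, NAT10 by 0.60, GNL2 by 0.54, NOP2 by 0.47, RRP15 by 0.42, HEATR1 by 0.40, WDR3 by -0.51 and FBL by -0.32. DDX10 and GNL2 held in every run, and the count was 3 to 5 without vehicle replicate 2 or 3 of 12 h, vehicle replicate 1 or 3 of 48 h, Di replicate 1 of 12 h or any Di array of 48 h.

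The effects of the compounds at 48 h were compared across the sets, each against its own vehicle. With the sign kept, the CdCl effect was lower than the high Kbr effect for 38 members and higher for 0. Of all genes 50.1% differed, 27.9% higher and 22.3% lower. The Di effect was lower for 35 and higher for 0, beside 43.5% of all genes, 23.6% higher and 19.9% lower. Some of these effects had opposite directions, as FBL fell under CdCl and Di and rose under high Kbr. At an unadjusted p under 0.05 limma had 39 and 36 lower and 0 higher. LYAR differed most, by -1.93 ± 0.28 for CdCl (adjusted p = 1.92e-06) and -1.63 ± 0.28 for Di (adjusted p = 2.55e-05), and UTP15 followed at -1.72 and -1.51. POLR1C differed by -1.53 ± 0.12 and WDR75 by -1.52 ± 0.14 between CdCl and Kbr, and WDR74 by -1.45 ± 0.24 between Di and Kbr.

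POLR1A (0.06 ± 0.27, 95% interval -0.49 to 0.60), RRP9, NOL6 and RRP1B did not pass between CdCl and high Kbr. The same 4 genes and HEATR1, NAT10 and DDX10 did not between Di and high Kbr, where DDX10 was at -0.31 ± 0.17 and POLR1A at 0.01 ± 0.27. With the replicate block RRP1B passed for CdCl (adjusted p = 0.00378) and RRP9 for Di (adjusted p = 0.0187). That block also used the replicate numbers of the CdCl and Di set, where same-numbered arrays share only a number. Of the calls 34 of 38 and 27 of 35 held in every run that left out 1 array. The array set and the beta-actin difference changed together with the compound here, and these cannot be told apart.

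**Figure D4:**
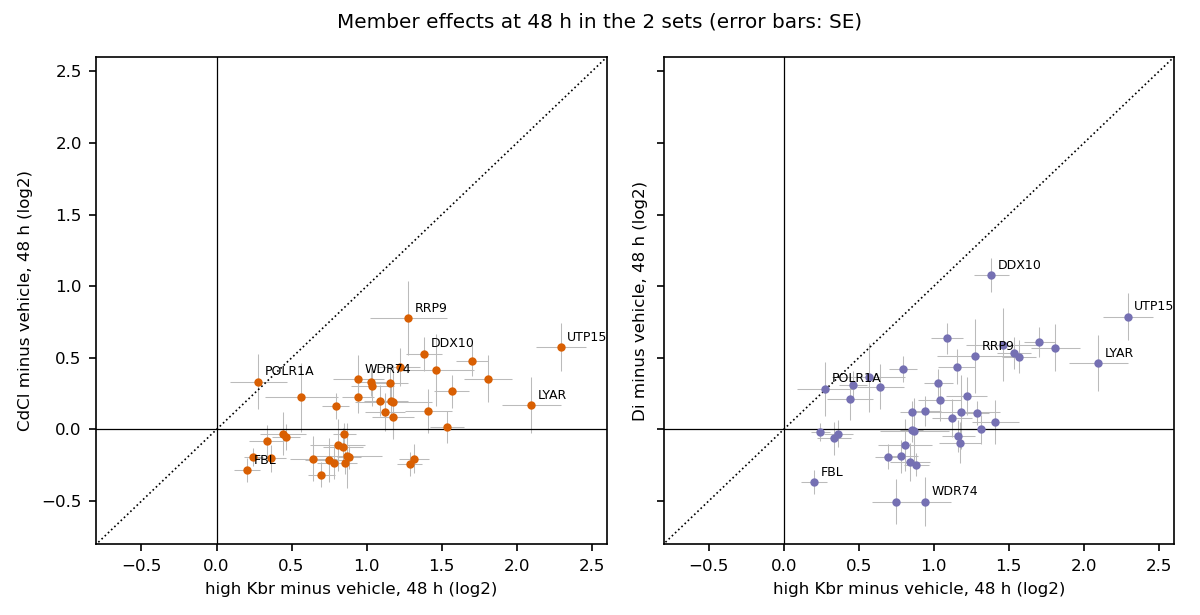
Log2 difference from vehicle at 48 h of each of the 42 genes, for CdCl (left) or Di (right) on the vertical axis and the high dose of Kbr on the horizontal axis, with SEs as bars and the dotted line marking equal effects. Points lie below the line, LYAR and UTP15 farthest to the right, except POLR1A, which lies at it, and DDX10 lies closer to it for Di than for CdCl.

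Across the 42 genes, whose values share arrays and are not independent replicates, the effects at 48 h correlated at r = 0.559 for CdCl with high Kbr, where all 11092 genes gave 0.323, and at 0.553 for Di with high Kbr, where all genes gave 0.481. For genes with an E-box in the promoter window (17 genes) and without (20 genes) the median difference was 1.09 and 0.91 at the high dose and 0.80 and 0.81 at the low dose of Kbr for 48 h. It was 0.17 and -0.02 under CdCl and 0.30 and 0.06 under Di for 48 h. At 24 h of Kbr it was 0.69 and 0.60 at the high dose and 0.47 and 0.45 at the low dose, and at 12 h -0.06 in both under CdCl and 0.10 and 0.06 under Di. These medians are a description.

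Other genes of the pathway were taken from lists drawn from textbook knowledge. Of all genes tested, 27.3% were higher and 34.5% lower at the high dose of Kbr for 48 h. At the high dose of Kbr for 48 h, 32 of 39 further small subunit factors rose and 1 fell (median 0.84), led by the kinase RIOK2 (1.99) and the export adaptor LTV1 (1.55), with RIOK3 lower (-0.38). Of 41 further large subunit factors 31 rose and 1 fell (median 0.77), with the GTPases LSG1 and GTPBP4 at 1.54 each and EFL1, which works with the release of EIF6, at -0.70. Of 17 further Pol I genes 10 rose (median 0.34), led by TAF1A (2.57) and RRN3 (2.01), initiation factors of Pol I.

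Of 13 further snoRNP proteins 10 rose and 1 fell at the high dose for 48 h, with NAF1 (1.76) and NUFIP1 (1.47) highest and PIH1D1 (-0.75) lower. Of 13 exosome genes, which trim the precursor, 8 rose and 1 fell, with DIS3 (1.35), EXOSC3 (1.30) and EXOSC10 (-0.37). The ribosomal proteins are the building blocks that these factors assemble. Of their 51 genes measured among 78 listed (65.4%), 2 rose (RPL27A 0.35, FAU 0.31) and 9 fell (RPL3 -0.46 and RPL29 -0.34 the most), with a median of -0.02. The members' median in the same comparison was 0.99, and of all genes 27.3% were higher and 34.5% lower.

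Under CdCl the further factors moved both ways, as all genes did. Of all genes, 13.4% rose and 30.5% fell under CdCl at 12 h, and 20.7% rose and 22.0% fell at 48 h. Under Di for 48 h, 19.1% of all genes rose and 23.9% fell. At 12 h 4 of the 39 small subunit factors rose and 5 fell, and 6 of the 41 large subunit factors rose (ZNF622 0.89, NIFK 0.80) and 16 fell (PELP1 -1.01, DDX55 -0.86). Of the 17 Pol I genes 1 rose (RRN3, 0.73) and 6 fell, with UBTF, the upstream binding factor of Pol I, at -1.16. At 48 h 17 of the small subunit factors rose (UTP11 0.76, IMP4 0.67) and 4 fell (DIMT1 -0.68 the most), and 10 of the large subunit factors rose (EIF6 1.28) and 4 fell (BRIX1 -0.58). Under Di for 48 h 15 small subunit factors rose (DHX37 1.04) and 4 fell (PWP2 -0.78), 10 large subunit factors rose and 1 fell, and of the Pol I genes 4 rose (TAF1A 0.98, RRN3 0.68) and 3 fell (UBTF -0.58).

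Genes of nucleotide synthesis and DNA replication are needed by growing cells alongside ribosomes. Of all genes, 27.3% rose and 34.5% fell at the high dose of Kbr for 48 h, and neither list stood far from these shares there. Under CdCl 30.5% of all genes fell at 12 h and 22.0% at 48 h, and under Di 23.9% fell at 48 h. Nucleotide synthesis had 6 of 18 genes higher (UMPS 1.02, PPAT 0.95) and 5 lower (CTPS2 -2.68, CAD -1.53) at the high dose of Kbr for 48 h, and 10 lower (CAD -1.10) under CdCl for 12 h. Of 28 DNA replication genes 7 rose (CDC6 2.88, MCM10 2.67) and 7 fell (PRIM1 -1.14) at the high dose of Kbr for 48 h. Under CdCl 24 of the 28 fell at 12 h and 24 at 48 h, and under Di 25 fell at 48 h.

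**Figure D5:**
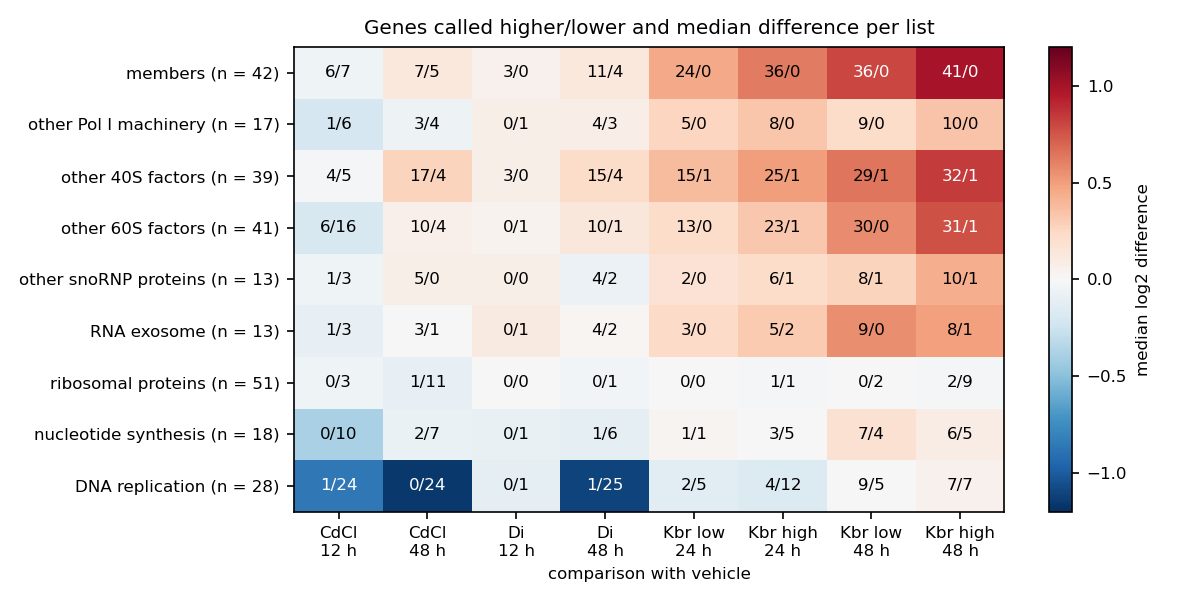
Genes higher and lower than vehicle (numbers in the cells, higher first) and median log2 difference (colour) for the 42 members and 8 other lists in the 8 comparisons, where 40S and 60S stand for the small and the large subunit. The members and the further subunit factors are redder at the later time and higher dose of Kbr, the ribosomal proteins are pale throughout, and DNA replication is deep blue under CdCl and under Di for 48 h.

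MYC is the transcription factor whose motif was searched in the promoters. Its arrays read 12.76, 12.36 and 12.34 in vehicle, 12.58, 12.41 and 12.29 at the low dose and 12.40, 12.20 and 11.73 at the high dose of Kbr for 48 h, overlapping groups. It fell by 0.37 at the high dose both at 24 h (adjusted p = 0.0431) and at 48 h (adjusted p = 0.0296), while the low dose gave -0.17 at 24 h and -0.06 at 48 h and did not pass. Between vehicles it was higher at the later time in each set, by 0.45 and 0.46. Of 10 measured genes among 13 of the MYC network (76.9%), 1 rose at the high dose for 48 h, MXD1, a repressor that shares the partner MAX with MYC, at 2.14, and 4 fell, MXD3 (-1.07) and MNT (-0.87) the most. Of all genes, 27.3% rose and 34.5% fell in that comparison. MXD1 was also higher under CdCl, by 1.62 at 48 h and 2.65 at 12 h, and under Di for 48 h, by 2.35.

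Among themselves the members followed their common profile to different degrees. Over the 12 group means, after subtracting the mean of each set, a gene's correlation with the mean of the other members was 0.989 for NOP2, 0.984 for RRP1 and 0.978 for BYSL, and lowest for FBL (0.264), POLR1A (0.452), RRP1B (0.459) and NPM1 (0.551). The range of those set-centred means was widest for UTP15 (2.29) and LYAR (2.10) and narrowest for NPM1 (0.27). The 5 genes outside the list whose profile was most like that of the members were QTRT2 (r = 0.985), PSMC2 (0.972), CCDC86 (0.968), RBBP5 (0.965) and DYNC1LI1 (0.965), each over 12 group means that share the same arrays, a description without a test.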

How the data were processed

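Total RNA of 36 cultures was labelled as biotinylated cRNA and hybridised to single-colour arrays, as the labels' protocols state. The deposited values are log2 intensities that the authors made with GCRMA, per the submitters' processing notes, with no version or further setting named. They ran from 0.714 to 16.1, with array medians of 2.91 to 3.02, and were used without further scaling. Of 54675 probe sets, 62 controls were left out, 41091 named 1 gene, 1801 several and 11721 none. A probe set was kept if above 4 on at least 3 arrays (23599), and each gene was taken from its kept probe set with the highest mean, which gave 11092 genes, 5474 of them with several kept probe sets. Precision is limited by the 3 arrays per group.

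Group means of all 12 groups were fitted together with limma 3.58.1 (lmFit, eBayes) in R 4.3.3, with Benjamini-Hochberg adjustment over the 11092 genes and a threshold of 0.05, and ± after a difference is its standard error. The fit was tested on simulated data. Tables and figures were made with Python 3.11.15, pandas 2.3.3 and matplotlib 3.10.9. The main fit held no replicate block, so its errors, intervals and p-values leave out any pairing by replicate number. In the Kbr set all 45 same-numbered pairs of arrays deviated together (r 0.218 to 0.701, median 0.456, and median -0.226 for different numbers). In the CdCl and Di set 8 of 45 did (median -0.0136). Replicate numbers were therefore read as pairing arrays in the Kbr set only, and the block was run as an alternative. Alternatives were no filter, a floor of 6, arrays centred on their medians, quantile normalization, averaging the probe sets of a gene, each set fitted alone, a replicate block, and leaving out each array.

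All members could be named. From other lists the 2 largest differences past the test in each direction were taken, or fewer, besides MYC and the 5 genes most like the members in profile. A few further genes and the promoter motifs were picked with their values in view. The members and lists were chosen with earlier results of these data known.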

Additional observations from a re-analysis of the deposited data

Results flagged for a closer look

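The results in question are differences between effects, each tested as an interaction. The high Kbr effect differed between 48 h and 24 h for 15 of the 42 genes, UTP15 the most at 1.24, and the low Kbr effect for 8, again with UTP15 the most at 0.95. Without vehicle replicate 3 of 24 h, the array with the highest member mean of its group (9.42, against 9.10 and 9.11), the counts were 8 and 0. The CdCl effect differed between 48 h and 12 h for 3 genes, POLR1A the most at 0.82, and the Di effect for 9, DDX10 the most at 0.92. At 48 h the effect of CdCl differed from that of high Kbr for 38 genes and that of Di for 35, with LYAR the most in both, at -1.93 and -1.63. Groups of 3 arrays were not tested for outlying values.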

How the results depend on the processing

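The counts of members past the test against vehicle stayed within 1.5 times under every alternative run, except as follows. For Di at 12 h (3) the count was 1 with the mean of probe sets, 7 with the set fitted alone and 7 blocked on the replicate, and leaving out 1 array gave 1 to 2. For CdCl at 12 h (13) leaving out 1 array gave 8 to 10, and for low Kbr at 24 h (24) it gave 14 to 28. Other comparisons moved more. With each set fitted alone the count was 0 for high against low Kbr at 24 h, 4 at 48 h, 12 for CdCl against Di at 12 h, 6 for the change of the CdCl effect, 0 and 7 for the changes of the low and high Kbr effects, and 0 for the Kbr vehicles. With the replicate block it was 5 for the doses at 24 h, 11 for CdCl against Di at 12 h, 6 for the change of the CdCl effect and 13 for the Kbr vehicles. Centring gave 2 for the doses at 24 h, 4 for the change of the low Kbr effect and 3 for the Kbr vehicles, and without a filter the change of the Di effect had 5 and the Kbr vehicles 2. Leaving out 1 array gave 0 to 1 for the doses at 24 h, 6 to 12 at 48 h, 2 to 6 for CdCl against Di at 12 h, 1 to 3 and 3 to 7 for the changes of the CdCl and Di effects, 0 to 11 and 8 to 18 for those of the low and high Kbr effects, and 0 to 9 for the Kbr vehicles. With the mean of probe sets RRP1B under CdCl for 12 h was at 0.15, WDR12 at -0.16 under Di for 48 h, at 0.028 for CdCl against Di at 48 h and at -0.14 for the change of the high Kbr effect, each against its direction as reported. In the CdCl and Di set same-numbered arrays share only a number, so its block values stand only here and, with that limit, in the comparison of effects across the sets. Of the values of single members past the test, recomputed under these alternatives, 4420 kept direction and side of the threshold, 597 kept direction but no longer passed, and 4 reversed. The cause of these shifts was not tested. Signals below the floor of 4 hold no measured level.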
